A study of Mus musculus with 36 samples.

Results

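The 10 genes described here mark the endothelium of the liver: Stab2, Lyve1, Clec4g and Oit3 as genes of the liver sinusoid, Kdr, Pecam1, Cdh5, Vwf and Cd34 as genes of endothelium in general or of capillarised vessels, and Stab1, which sinusoidal cells share with macrophages. They were selected by symbol, with earlier results of these data known, among the 49315 genes of a liver RNA-seq table, and all 10 reached at least 1 TPM (transcripts per 1000000) in at least 4 of 36 libraries, as did 16638 genes in all. The livers came from 36 male mice aged 11 to 12 weeks, 4 in each of 9 groups. CRISPR had been used to change tryptophan to phenylalanine at residue 441 of the liver X receptor LXRalpha, a nuclear receptor for oxidised cholesterol, and the mice were homozygous controls (W/W), heterozygotes (W/F) or homozygous mutants (F/F). Each genotype was kept on normal chow, or on a MASH promoting diet (Teklad TD.96121; MASH, metabolic dysfunction-associated steatohepatitis) for 4 weeks with daily oral gavage over the last 2 weeks of either vehicle or 10 mg/kg T0901317, a synthetic LXR agonist. The mutation was in the germline, so every cell type of the liver carried it. The chow mice were a separate cohort with no gavage listed, so diet, gavage and cohort cannot be told apart in any comparison with chow.

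Liver sinusoidal endothelial cells line the capillaries of the liver lobule. They are perforated, lack a continuous basement membrane, and clear hyaluronan, modified lipoproteins and other waste through scavenger receptors such as the stabilins. In chronic liver injury these cells can lose their pores and their scavenger and lectin genes and take on CD34, von Willebrand factor and a basement membrane, a change called capillarisation. Vascular endothelial growth factor, acting through KDR, helps to keep the sinusoidal state.

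The libraries held 18.1 to 35.8 M reads (M, 1000000 reads; median 23.9), recovered from the smallest steps in the TPM values. Hepatocyte markers summed to 34800 TPM or more in every library, and 24 further endothelial genes summed to 114 to 299 TPM, so the libraries were liver with a small endothelial share. In bulk RNA, fewer cells of a type and less RNA per cell cannot be told apart. TPM are shares of a fixed total, and the median of all 16638 genes was itself 0.52 higher in W/F livers and 0.70 higher in F/F than in W/W on vehicle, on the log2 scale. Counts of genes passing, and the main differences, are therefore also given after rescaling the libraries to a common median gene. The library of W/F with T0901317 replicate 2 stood apart, with macrophage markers summing to 1450 TPM against 204 to 339 TPM in the other 3 of its group, and F/F with T0901317 replicate 3 was the lowest of its group in macrophage, stellate cell and endothelial sums. Results of the 10 genes that rest on them are given with and without them.

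The genes lie on 8 chromosomes of GRCm38 (GENCODE M21): Stab2 on chr10:86841198-87008025, Lyve1 on chr7:110850607-110863239, Clec4g on chr8:3707064-3720651, Oit3 on chr10:59422958-59441778, Stab1 on chr14:31139013-31168641, Kdr on chr5:75932827-75978458, Pecam1 on chr11:106654217-106750628, Cdh5 on chr8:104101625-104144511, Vwf on chr6:125546774-125686679 and Cd34 on chr1:194938819-194961279. All are protein-coding, and values cover all exons of a gene. Exons of Stab2, Clec4g, Stab1 and Cd34 overlap a gene on the opposite strand over 1.61%, 5.93%, 1.09% and 2.03% of their bases, and reads of such a pair cannot be told apart because the strand setting is not given in the sources used here. The RefSeq promoter table (GRCm38.p6) matched 5 members, Stab2, Clec4g, Stab1, Kdr and Cd34. Below are the 250 bases before the start site, 5′ to 3′ on the gene's strand, of Clec4g, which was lower on vehicle in both mutants, of Stab1 and Cd34, which were higher, and of Stab2, whose direction depended on scaling. Capitals mark AGGAAG or CGGAAG, the core recognised by ETS factors such as ERG, on either strand (CTTCCT or CTTCCG when read here from the opposite strand).
Clec4g, chr8:3720652-3720901, minus strand: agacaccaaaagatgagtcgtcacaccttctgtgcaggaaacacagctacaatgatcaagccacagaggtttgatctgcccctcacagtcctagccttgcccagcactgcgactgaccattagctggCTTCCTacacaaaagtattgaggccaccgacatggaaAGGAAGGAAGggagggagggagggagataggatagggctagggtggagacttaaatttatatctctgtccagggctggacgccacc
Stab1, chr14:31168642-31168891, minus strand: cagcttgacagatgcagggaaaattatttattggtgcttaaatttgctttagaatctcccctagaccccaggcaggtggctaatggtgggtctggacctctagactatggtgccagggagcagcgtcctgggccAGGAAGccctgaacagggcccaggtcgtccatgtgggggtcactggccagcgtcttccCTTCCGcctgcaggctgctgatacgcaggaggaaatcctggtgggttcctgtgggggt
Cd34, chr1:194938571-194938820, plus strand: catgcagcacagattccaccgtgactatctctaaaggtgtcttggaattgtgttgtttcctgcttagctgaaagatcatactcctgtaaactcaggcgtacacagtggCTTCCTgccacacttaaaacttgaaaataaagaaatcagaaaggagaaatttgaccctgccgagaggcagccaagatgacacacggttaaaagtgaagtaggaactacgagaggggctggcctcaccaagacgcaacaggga
Stab2, chr10:87007943-87008192, minus strand: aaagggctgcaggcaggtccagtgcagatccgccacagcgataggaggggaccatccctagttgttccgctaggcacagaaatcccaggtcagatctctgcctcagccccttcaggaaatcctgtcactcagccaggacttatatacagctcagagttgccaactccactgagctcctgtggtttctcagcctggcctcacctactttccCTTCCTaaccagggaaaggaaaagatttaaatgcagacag
AGGAAG was found in 4 of the 5 members' windows, which run from 250 bases before to 50 bases after the start. Clec4g held 3 copies, with first bases at positions -123, -86 and -82 from its start, the last 2 overlapping. Stab1, Cd34 and Stab2 held 1 copy each, and Stab1 also 1 CGGAAG. Genes that were higher and genes that were lower on vehicle both held the motif, and so did 35.4% of all 32851 windows of the same length for AGGAAG and 16.9% for CGGAAG. Kdr held no copy of either. The GATA motifs AGATAA and TGATAA, found in 11.2% and 9.05% of all windows, and the LXR element, AGGTCA repeated after a gap of 4 bases and found in 5 of them, matched no letters of the 5 members.

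In the livers of W/W mice on chow, Clec4g, a sinusoidal lectin also called LSECtin, was the most abundant member with 29.7 ± 4.66 TPM (mean ± SD, n = 4 mice here and below), followed by Oit3, a secreted zona pellucida domain protein, with 11.8 ± 3.52 TPM. Stab2, a scavenger receptor for hyaluronan, and Stab1, one for modified lipoproteins, stood at 10.6 ± 1.98 and 9.84 ± 1.52 TPM. Kdr, the main receptor of vascular endothelial growth factor, and Cdh5, the cadherin of endothelial junctions, were at 8.68 ± 1.16 and 8.60 ± 1.88 TPM. From Oit3 to Cdh5, neighbours in this order did not differ beyond their spread. The hyaluronan receptor Lyve1 and the adhesion molecule Pecam1 (CD31) followed at 5.58 ± 4.22 and 5.13 ± 0.889 TPM. Vwf, the platelet-binding protein of larger vessels, was low at 1.19 ± 0.296 TPM, and the sialomucin Cd34 was near the floor at 0.349 ± 0.128 TPM, which is 10 to 28 reads per library.

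On the MASH diet with vehicle, some members were higher and others lower in the mutants than in W/W. In W/F, 4 of 10 members were higher than in W/W (Lyve1, Stab1, Vwf, Cd34) and 3 lower (Clec4g, Oit3, Kdr) at a limma adjusted p under 0.05, where 68.5% of all genes tested passed, 61.6% of all genes being higher and 6.83% lower (such shares are of all genes tested here and below). In F/F, 5 members were higher (Lyve1, Stab1, Pecam1, Vwf, Cd34) and 2 lower (Clec4g, Kdr), where 76.5% of all genes passed, 69.3% higher and 7.13% lower. The median member differed by 0.04 in W/F livers and 0.44 in F/F, below the median of all genes in both. After rescaling 2 members were higher (Stab1, Cd34) and 6 lower (Stab2, Clec4g, Oit3, Kdr, Pecam1, Cdh5) in W/F, where 27.6% of all genes were higher and 25.5% lower, and 4 were higher (Lyve1, Stab1, Vwf, Cd34) and 5 lower (Stab2, Clec4g, Oit3, Kdr, Cdh5) in F/F, where 31.0% were higher and 28.1% lower. Both comparisons use the same 4 W/W mice.

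Clec4g, the most abundant sinusoidal gene, was at 30.8, 36.4, 34.9 and 31.5 TPM in the W/W mice on vehicle. It was at 19.5, 13.8, 11.8 and 19.2 TPM in W/F and at 26.8, 20.3, 20.1 and 30.1 TPM in F/F. Every mutant mouse lay below every W/W mouse, and the W/F mice lay below every F/F mouse. The log2 fold change against W/W was -1.04 ± 0.15 (SE) in W/F, adjusted p = 6.24e-07, and -0.46 ± 0.15 in F/F, adjusted p = 0.00746. After rescaling it was -1.67 and -1.29. F/F exceeded W/F by 0.58 ± 0.15 (adjusted p = 0.00691), but by 0.38 after rescaling, which did not pass (adjusted p = 0.125). Oit3 followed in W/F, with 7.17, 8.14, 5.84 and 8.58 TPM against 14.5, 12.3, 10.5 and 12.2 TPM in W/W. No W/F mouse reached the W/W range, and the log2 fold change was -0.67 ± 0.19, adjusted p = 0.00232. In F/F Oit3 was at 10.2, 9.25, 8.06 and 13.1 TPM, which overlapped W/W (-0.27 ± 0.19, adjusted p = 0.185), and it passed only after rescaling (-1.06, adjusted p = 1.96e-05).

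Kdr, a general endothelial gene by the grouping used here, was lower in both mutants, while Vwf and Cd34 of the same group were higher. It was at 7.20, 8.46, 7.35 and 7.51 TPM in W/W on vehicle. It was at 4.57, 4.78, 3.43 and 4.62 TPM in W/F and at 4.92, 5.70, 3.62 and 6.92 TPM in F/F. Neither mutant group overlapped W/W. The log2 fold change was -0.70 ± 0.16 in W/F (adjusted p = 0.00032) and -0.48 ± 0.16 in F/F (adjusted p = 0.00774). The F/F call was lost without F/F vehicle replicate 3 (-0.34, adjusted p = 0.0581). After rescaling the values were -1.26 and -1.21.

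Stab2 did not pass on the deposited scale. It was at 8.35, 11.0, 9.32 and 11.2 TPM in W/W on vehicle, at 12.2, 11.7, 11.2 and 11.3 TPM in W/F, and at 10.8, 13.3, 10.9 and 13.3 TPM in F/F. The groups overlapped, and the log2 fold changes were 0.20 ± 0.13 (95% interval -0.06 to 0.46) and 0.26 ± 0.13 (0.00 to 0.52). The F/F difference passed without F/F vehicle replicate 1 (0.31) or W/W vehicle replicate 2 (0.30) or 4 (0.31). Rescaled, the direction turned, to -0.40 in W/F (adjusted p = 0.00281) and -0.53 in F/F (adjusted p = 0.000115). Cdh5 also changed its call with the scaling. It was 9.25 ± 0.875 TPM in W/W livers, 6.57 ± 2.13 TPM in W/F livers and 8.62 ± 1.89 TPM in F/F, not passing in either mutant on the deposited scale (-0.48, adjusted p = 0.0539, but passing without W/F vehicle replicate 1, -0.58, or 4, -0.61, and -0.11, adjusted p = 0.663) and passing in both after rescaling (-1.06 and -0.88).

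Stab1 showed the second largest difference of the members after Cd34 in F/F. It was at 8.35, 9.68, 8.08 and 9.36 TPM in W/W on vehicle. It was at 30.2, 21.9, 26.2 and 20.1 TPM in W/F and at 37.9, 44.8, 36.4 and 41.4 TPM in F/F. The 3 genotypes did not overlap and stood in the order W/W, W/F, F/F. The log2 fold change against W/W was 1.36 ± 0.16 in W/F (adjusted p = 8.54e-09) and 2.06 ± 0.16 in F/F (adjusted p = 8.32e-13), with 0.74 and 1.24 after rescaling, and F/F exceeded W/F by 0.70 ± 0.16 (adjusted p = 0.00196). Its paralogue Stab2 did not move with it, and the ratio of Stab1 to Stab2 within a library was 0.894 ± 0.073 in W/W livers, 2.12 ± 0.342 in W/F livers and 3.33 ± 0.173 in F/F. Stab1 is also a macrophage gene, and the 12 macrophage markers summed to 268 to 444 TPM in W/W livers, 3200 to 4310 TPM in W/F livers and 3620 to 4710 TPM in F/F on vehicle. Among them the genes of resident Kupffer cells Clec4f, Timd4 and Cd163 were near 0 in F/F, at 0.354, 0.101 and 0.0515 TPM. Lyz2 was at 3230 TPM in F/F. In W/F the markers divided. Timd4 and Cd163 were at 0.787 and 0.272 TPM, and Clec4f was lower than in W/W but not near 0. Cd5l was higher, at 263 TPM in W/F against 80.5 TPM in W/W and 1.58 TPM in F/F. Vsig4 was also higher in every W/F mouse than in any W/W mouse, and Marco overlapped W/W. The part of macrophages in the Stab1 result was not tested.

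Lyve1, the other hyaluronan receptor of the set, which sinusoidal, lymphatic and some macrophage cells express, was at 7.35, 6.14, 6.28 and 5.32 TPM in W/W on vehicle. It was at 15, 13.4, 11.8 and 15.7 TPM in W/F and at 21.2, 17.6, 16.8 and 32.4 TPM in F/F. Each mutant group lay wholly above W/W, by 1.04 ± 0.28 (adjusted p = 0.00166) and 1.62 ± 0.28 (adjusted p = 5.89e-06) on the log2 scale. After rescaling Lyve1 passed in F/F (0.82, adjusted p = 0.0118) but not in W/F (0.44, adjusted p = 0.187). The 4 sinusoidal genes did not move as a block, and the ratio of Lyve1 to Clec4g within a library went from 0.189 ± 0.0337 in W/W to 0.892 ± 0.115 in W/F livers and 0.893 ± 0.127 in F/F. Beside Lyve1, the lymphatic markers summed to 24.2 to 36.8 TPM in W/W livers, 43.1 to 57.9 TPM in W/F livers and 48.9 to 63.3 TPM in F/F, with Ccl21a listed at 0 in all libraries, Mmrn1 under 1 TPM in every group, and Prox1, which hepatocytes also express, as the largest term. Of the others, Pdpn was at 0.275, 1.99 and 5.52 TPM, Reln at 2.38, 6.95 and 5.90 TPM, and Flt4 at 4.71, 4.45 and 6.78 TPM in the order W/W, W/F, F/F. Reln is also among the stellate cell markers used here, and Flt4 among the further sinusoidal genes. The part of lymphatic cells in the Lyve1 result was not tested.

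Cd34, the classical marker of capillarised sinusoids, was at 0.156, 0.278, 0.345 and 0.498 TPM in W/W on vehicle, or 11 to 37 reads. It was at 2.60, 1.86, 2.23 and 2.07 TPM in W/F and at 4.88, 5.45, 6.90 and 7.17 TPM in F/F, or 313 to 505 reads. The 3 genotypes were separate and in the same order as for Stab1. On the log2(TPM + 1) scale, which understates changes of so low a gene, the difference from W/W was 1.27 ± 0.17 in W/F (adjusted p = 1.14e-07) and 2.42 ± 0.17 in F/F (adjusted p = 1.6e-13), and F/F exceeded W/F by 1.15 ± 0.17 (adjusted p = 1.84e-05). Rescaled values were 0.98, 1.90 and 0.92, all passing. Relative to Pecam1 in the same library, Cd34 was 0.0626 ± 0.0302 in W/W livers, 0.482 ± 0.138 in W/F livers and 0.726 ± 0.177 in F/F. Fibroblasts and blood progenitors also express Cd34: the 12 stellate cell and fibroblast markers summed to 101 to 165 TPM in W/W livers, 680 to 910 TPM in W/F livers and 1150 to 1460 TPM in F/F, and 5 progenitor markers to 3.33 to 8.01, 30.2 to 40.1 and 38.6 to 51.1 TPM. Most of the progenitor sum in the mutants was Cd48, which leukocytes in general express, at 3.07, 31.5 and 40.7 TPM. Kit was at 1.17, 1.21 and 1.83 TPM and Gata2 at 0.486, 0.368 and 0.588 TPM. Flt3 and Mpo were low but higher in the mutants, Flt3 at 0.181, 1.02 and 1.19 TPM and Mpo at 0.0436, 0.491 and 1.3 TPM. The part of fibroblasts and progenitors in the Cd34 result was not tested.

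Vwf was at 0.758, 1.28, 0.972 and 1.07 TPM in W/W on vehicle. It was at 1.53, 1.70, 2.01 and 1.59 TPM in W/F and at 2.55, 4.38, 3.42 and 3.54 TPM in F/F. The F/F group stood above both others, by 1.14 ± 0.15 against W/W (adjusted p = 5.33e-08; rescaled 0.57, adjusted p = 0.000754) and by 0.71 ± 0.15 against W/F (adjusted p = 0.00113). The W/F difference from W/W, 0.43 ± 0.15 (adjusted p = 0.0127), was lost without W/W vehicle replicate 1 (0.36, adjusted p = 0.0503) and after rescaling (0.05). Pecam1, carried by nearly all endothelium, was 5.15 ± 0.510 TPM in W/W livers, 4.71 ± 0.855 TPM in W/F livers and 8.56 ± 1.52 TPM in F/F. Its rise in F/F (0.63 ± 0.17, adjusted p = 0.00106) held only on the deposited scale, the rescaled value being -0.12 (adjusted p = 0.475). In W/F its difference of -0.12 (adjusted p = 0.544) passed as lower after rescaling (-0.66, adjusted p = 0.000222). Platelets also carry Vwf and Pecam1, and 6 platelet and megakaryocyte markers summed to 3.11 to 4.86 TPM in W/W livers, 23.4 to 26.4 TPM in W/F livers and 29.5 to 41.2 TPM in F/F, most of it Pf4 in the mutants. Pf4 was at 1.18, 18.6 and 26.3 TPM in the order W/W, W/F, F/F. The others stayed low, Itga2b at 1.45, 2.49 and 2.46 TPM, Ppbp at 0.668, 1.17 and 2.79 TPM and Treml1 at 0.162, 1.82 and 1.57 TPM. Gp1bb was at 0.0532, 0.194 and 0.282 TPM and Gp9 at 0.0573, 0.272 and 0.543 TPM. The part of platelets in the Vwf and Pecam1 results was not tested.

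**Figure D1:**
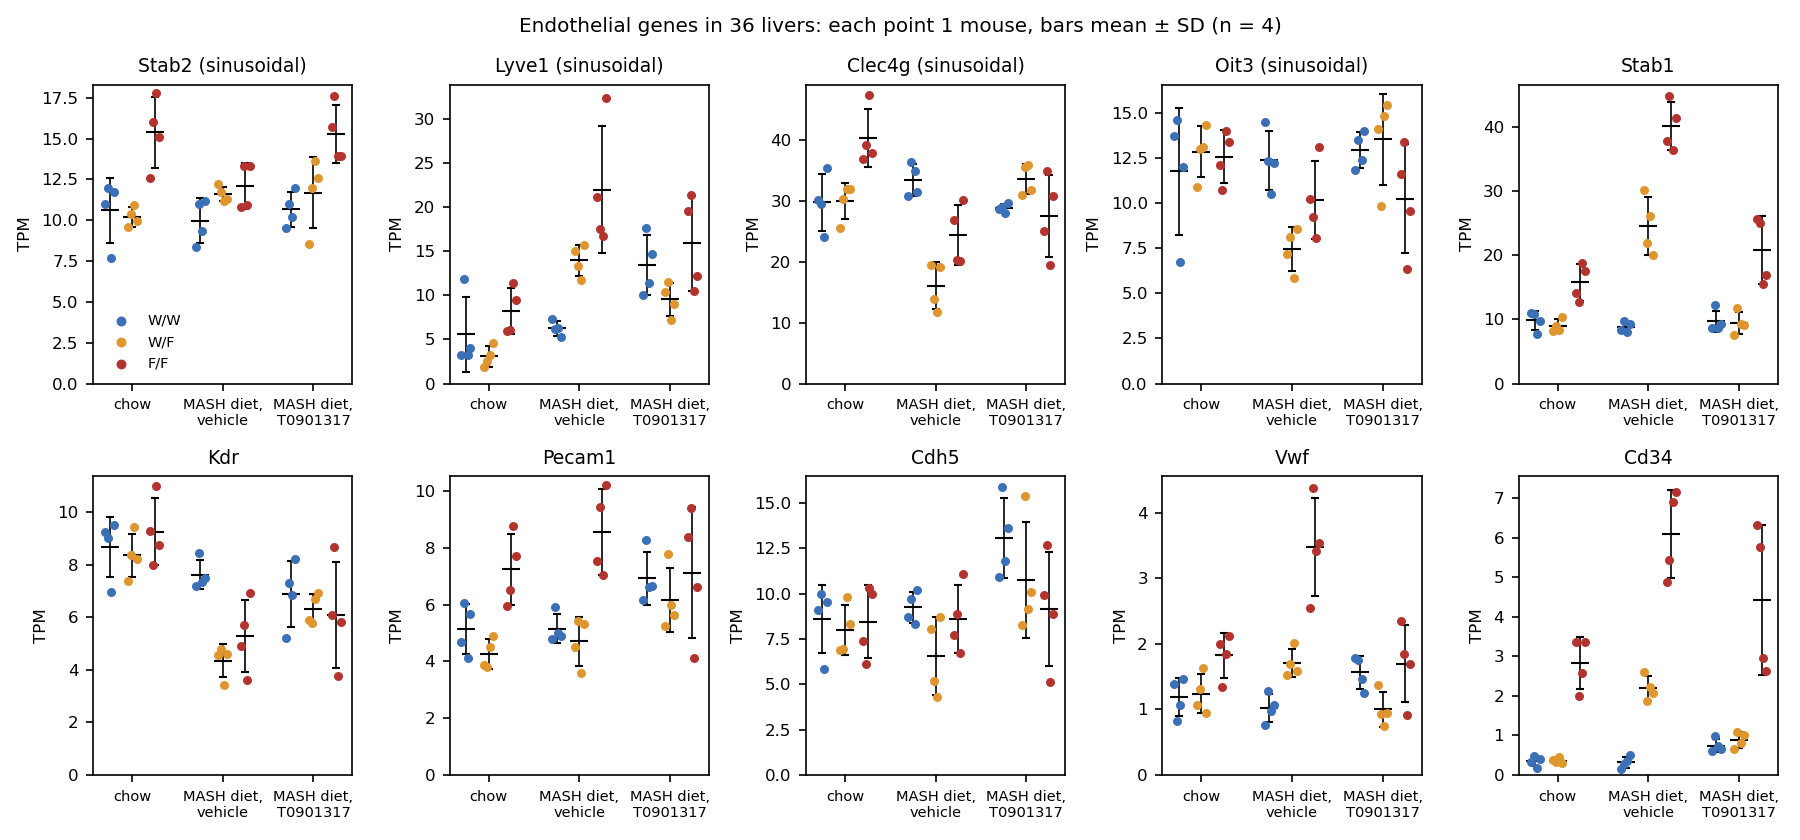
TPM of the 10 endothelial genes in each of 36 livers, by treatment (horizontal) and genotype (colour), with the mean and SD of 4 mice as bars. On vehicle the W/F and F/F points of Clec4g and Kdr lie below the W/W points, while those of Stab1, Lyve1 and Cd34 lie above them.

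T0901317 was compared with vehicle within each genotype to ask how agonist treatment moved these genes. In W/F, 4 members rose (Clec4g, Oit3, Kdr, Cdh5) and 3 fell (Stab1, Vwf, Cd34), where 65.9% of all genes passed, 6.59% higher and 59.3% lower. The W/F vehicle mice enter this comparison and the one of genotypes on vehicle. In F/F, 3 members fell (Stab1, Vwf, Cd34) and none rose, where 35.1% of all genes passed, 3.95% higher and 31.2% lower. After rescaling Stab1 and Vwf fell in F/F and Stab2 rose, where 7.98% of all genes fell and 8.32% rose. In W/W only Lyve1 passed, as higher, where 10.8% of all genes did, 7.87% higher and 2.91% lower. After rescaling Cd34 passed as higher too, where 8.0% of all genes were higher and 5.52% lower. Cd34 was at 0.609, 0.979, 0.738 and 0.646 TPM in W/W with T0901317, or 48 to 66 reads, above every W/W vehicle mouse.

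In W/F with T0901317, Clec4g was at 31.0, 35.5, 35.9 and 31.8 TPM, above all 4 mice on vehicle. The log2 fold change was 1.05 ± 0.15 (adjusted p = 7.19e-07; rescaled 1.62). Oit3 was at 14.1, 9.85, 14.8 and 15.4 TPM, also above every vehicle mouse (0.78 ± 0.19, adjusted p = 0.000572; rescaled 1.32). Stab1 was at 7.52, 11.8, 9.33 and 9.09 TPM, below every vehicle mouse, and fell by 1.29 on the log2 scale (SE 0.16, adjusted p = 3.36e-08; rescaled -0.72). Cd34 was at 0.655, 1.10, 0.802 and 1.02 TPM and fell by 0.75 (SE 0.17, adjusted p = 0.000255; rescaled -0.41, adjusted p = 0.0192). Cd34 also lay below every vehicle mouse. In this comparison 65.9% of all genes passed, and the share of all genes without overlap was not counted. The rise of Kdr to 6.33 ± 0.569 TPM (0.46 ± 0.16, adjusted p = 0.0127) was lost without W/F vehicle replicate 3 (0.37, adjusted p = 0.0586). That of Cdh5 to 10.7 ± 3.21 TPM (0.64 ± 0.22, adjusted p = 0.0112) was lost without the same library (0.49, adjusted p = 0.0644) and without W/F T0901317 replicate 2, the library that stood apart (0.47, adjusted p = 0.0679). Without that library 6 members passed. Rescaled, both passed (0.96 and 1.17), Stab2 and Pecam1 also passed as higher (0.55 and 0.83), and the fall of Vwf (-0.44 ± 0.15, adjusted p = 0.0107) did not (-0.09), where 23.6% of all genes were higher and 27.1% lower.

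In F/F with T0901317, Stab1 was at 25.6, 25.1, 15.5 and 16.9 TPM, still below every F/F mouse on vehicle (-0.95 ± 0.16, adjusted p = 5.55e-05; rescaled -0.68). Vwf was at 2.35, 1.84, 0.923 and 1.69 TPM, again with no overlap (-0.74 ± 0.15, adjusted p = 0.000548; rescaled -0.51). Cd34 was at 6.33, 5.76, 2.97 and 2.63 TPM and overlapped vehicle. Its difference of -0.44 ± 0.17 (adjusted p = 0.0396) was lost without F/F T0901317 replicate 3 or 4 or F/F vehicle replicate 3 or 4 (-0.39 to -0.27, adjusted p from 0.104 to 0.211) and after rescaling (-0.21). Stab2, at 15.7, 17.6, 13.9 and 13.9 TPM, lay above every F/F vehicle mouse, but its difference did not pass on the deposited scale (0.31 ± 0.13, adjusted p = 0.0537) and passed after rescaling (0.55, adjusted p = 0.000697). Clec4g was at 25.0, 34.9, 19.5 and 30.7 TPM, and its difference from vehicle did not pass (0.16 ± 0.15, 95% interval -0.15 to 0.47). In W/W, Lyve1 was at 10.0, 17.7, 11.4 and 14.7 TPM with T0901317, above every W/W vehicle mouse (0.97 ± 0.28, adjusted p = 0.0221; rescaled 0.92, adjusted p = 0.0242). That call was lost without W/W T0901317 replicate 2 (0.83, adjusted p = 0.0927) or 4 (0.92, adjusted p = 0.0613) or W/W vehicle replicate 4 (0.90, adjusted p = 0.0614).

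The difference of the T0901317 response between genotypes was tested as an interaction. Against W/W, the response of W/F was lower for Lyve1, Stab1, Vwf and Cd34 and higher for Clec4g, Oit3 and Kdr, 7 of 10 members where 58.5% of all genes passed, 5.27% higher and 53.2% lower. That of F/F was lower for Lyve1, Stab1, Pecam1, Vwf and Cd34, 5 of 10 where 30.4% of all genes passed, 3.29% higher and 27.2% lower. The 2 tests share the W/W mice. After rescaling 6 members were higher (Stab2, Clec4g, Oit3, Kdr, Pecam1, Cdh5) and 2 lower (Stab1, Cd34) in W/F, where 19.9% of all genes were higher and 24.0% lower. In F/F 2 were then higher (Stab2, 0.52, and Clec4g, 0.69) and 4 lower (Lyve1, Stab1, Vwf, Cd34), where 7.39% were higher and 10.0% lower, and Pecam1 did not pass (-0.34, adjusted p = 0.255). The largest on the deposited scale were Lyve1 in W/F, -1.48 ± 0.40 (adjusted p = 0.00212), and Lyve1 in F/F, -1.42 ± 0.40 (adjusted p = 0.0084). After rescaling Lyve1 passed in F/F (-1.12) but not in W/F (-0.88, adjusted p = 0.0712). Stab1 in W/F was at -1.40 ± 0.22 (adjusted p = 4.28e-06; rescaled -0.77) and Clec4g in W/F at 1.25 ± 0.21 (adjusted p = 1.5e-05; rescaled 1.89).

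The diet was compared with chow within each genotype, with the caveat of gavage and cohort given above. In W/W none of the 10 members passed by limma, and none had an unadjusted p under 0.05, where 12.9% of all genes passed, 2.59% higher and 10.3% lower. In W/F 3 rose (Lyve1, Stab1, Cd34) and 3 fell (Clec4g, Oit3, Kdr), where 61.0% of all genes passed, 52.4% higher and 8.53% lower. In F/F 4 rose (Lyve1, Stab1, Vwf, Cd34) and 3 fell (Stab2, Clec4g, Kdr), where 55.8% of all genes passed, 46.5% higher and 9.27% lower. After rescaling 3 rose and 5 fell in W/F, Stab2 and Cdh5 being added to those that fell, and 4 rose and 4 fell in F/F, with Oit3 added. The shares of all genes were then 27.9% and 27.0% in W/F and 25.7% and 21.3% in F/F. Lyve1 showed the largest change in W/F, from 1.93, 2.54, 3.22 and 4.59 TPM on chow to the vehicle values above, 1.91 ± 0.28 (adjusted p = 8.37e-07; rescaled 1.48). In F/F it went from 5.97, 6.12, 11.4 and 9.47 TPM to the vehicle values (1.31 ± 0.28, adjusted p = 0.000224; rescaled 0.97). Clec4g fell by 0.88 in W/F (SE 0.15, adjusted p = 9.61e-06) and by 0.72 in F/F (SE 0.15, adjusted p = 0.000192), and Kdr by 0.81 and 0.72, all without overlap. Rescaled values were -1.36 and -1.05 for Clec4g and -1.23 and -0.99 for Kdr. The fall of Stab2 in F/F (-0.32 ± 0.13, adjusted p = 0.0337) was lost without F/F chow replicate 2 or 3 or F/F vehicle replicate 1 or 3 (-0.30 to -0.25), but passed after rescaling (-0.63).

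The responses to diet differed from that of W/W for 6 of 10 members in each mutant, in tests that share the W/W mice. In W/F they were Lyve1, Stab1 and Cd34 upward and Clec4g, Oit3 and Kdr downward, where 54.6% of all genes passed, 49.5% higher and 5.13% lower. In F/F they were Lyve1, Stab1, Vwf and Cd34 upward and Clec4g and Kdr downward, where 46.0% of all genes passed, 41.5% higher and 4.54% lower. After rescaling Cdh5 joined those downward in W/F, where 40.1% of all genes passed. In F/F Lyve1 (0.53, adjusted p = 0.349) and Vwf (0.43, adjusted p = 0.107) then lost their calls and Stab2 and Oit3 passed as lower, where 14.5% were higher and 12.3% lower. For Stab1 the difference was 1.47 ± 0.22 in W/F (adjusted p = 2.65e-06) and 1.43 ± 0.22 in F/F (adjusted p = 1.05e-05; rescaled 0.88 and 0.97), and for Clec4g -1.05 ± 0.21 and -0.89 ± 0.21 (rescaled -1.66 and -1.35).

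On chow, no difference between W/F and W/W was detected: no member passed by limma or had an unadjusted p under 0.05, where 0.487% of all genes passed. In F/F 6 members were higher than in W/W and none lower (Stab2, Clec4g, Stab1, Pecam1, Vwf, Cd34), where 46.7% of all genes passed, 43.0% higher and 3.65% lower. Cd34 was at 3.36, 2.01, 2.57 and 3.36 TPM in F/F on chow against 0.317, 0.488, 0.188 and 0.404 TPM in W/W. The groups were far apart (1.49 ± 0.17, adjusted p = 5.02e-08), and Cd34 was the only member of the 6 to pass after rescaling (1.30, adjusted p = 4.02e-08), where 29.9% of all genes passed. The stellate cell and fibroblast markers summed to 315 to 628 TPM in these F/F mice and to 78.7 to 123 TPM in W/W, and their part was not tested. Stab2 was at 12.6, 16, 17.8 and 15.1 TPM in F/F and at 11.0, 12.0, 7.67 and 11.7 TPM in W/W (0.51 ± 0.13, adjusted p = 0.0018; rescaled 0.15). Lyve1 (0.62 ± 0.28, adjusted p = 0.0689) passed without W/W chow replicate 2 (1.01), F/F chow replicate 1 (0.74) or F/F chow replicate 2 (0.73). The call of Clec4g (0.43 ± 0.15, adjusted p = 0.0208) was lost without F/F chow replicate 3 (0.35) or W/W chow replicate 3 (0.34). That of Pecam1 (0.43 ± 0.17, adjusted p = 0.035) was lost without either of these (0.34 each) and without F/F chow replicate 4 or W/W chow replicate 1 (0.39 each), and that of Vwf (0.37 ± 0.15, adjusted p = 0.0418) without F/F chow replicates 1, 3 or 4 or W/W chow replicates 2 or 3 (0.29 to 0.36). Without F/F chow replicate 3, or without W/W chow replicate 3, 3 members passed in place of 6.

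With T0901317, no member differed between W/F and W/W at an adjusted p under 0.05 by limma, and 1 had an unadjusted p under 0.05, where 9.88% of all genes passed, 3.65% higher and 6.23% lower. Clec4g was 33.5 ± 2.51 TPM in W/F livers and 28.8 ± 0.709 TPM in W/W, and Stab1 9.45 ± 1.79 and 9.71 ± 1.69 TPM. The intervals of the differences were -0.10 to 0.52 for Clec4g and -0.36 to 0.28 for Stab1. F/F differed from W/W for 4 members, with Stab2, Stab1 and Cd34 higher and Cdh5 lower, where 63.2% of all genes passed, 56.3% higher and 6.96% lower. Stab1 was at 20.8 ± 5.34 TPM (1.00 ± 0.16, adjusted p = 2.65e-06; rescaled 0.51) and Cd34 at 4.42 ± 1.89 TPM against 0.743 ± 0.166 TPM (1.57 ± 0.17, adjusted p = 6.43e-09; rescaled 1.24). Stab2 was at 15.7, 17.6, 13.9 and 13.9 TPM in F/F and 9.51, 11.0, 10.2 and 12.0 TPM in W/W (0.48 ± 0.13, adjusted p = 0.00171), a difference that rescaling removed (-0.01). Cdh5, at 9.16 ± 3.14 TPM against 13.0 ± 2.23 TPM (-0.51 ± 0.22, adjusted p = 0.0433), lost its call without F/F T0901317 replicate 3 (-0.29, adjusted p = 0.249) or 4 (-0.52, adjusted p = 0.0641) or W/W T0901317 replicate 2 (-0.42) or 4 (-0.49), but passed after rescaling (-0.99). Oit3 (-0.35, adjusted p = 0.1) passed without F/F T0901317 replicate 2 (-0.49). After rescaling 7 members passed, where 46.9% of all genes did, and Clec4g (-0.61), Oit3 (-0.84) and Kdr (-0.64) were lower in F/F.

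**Figure D2:**
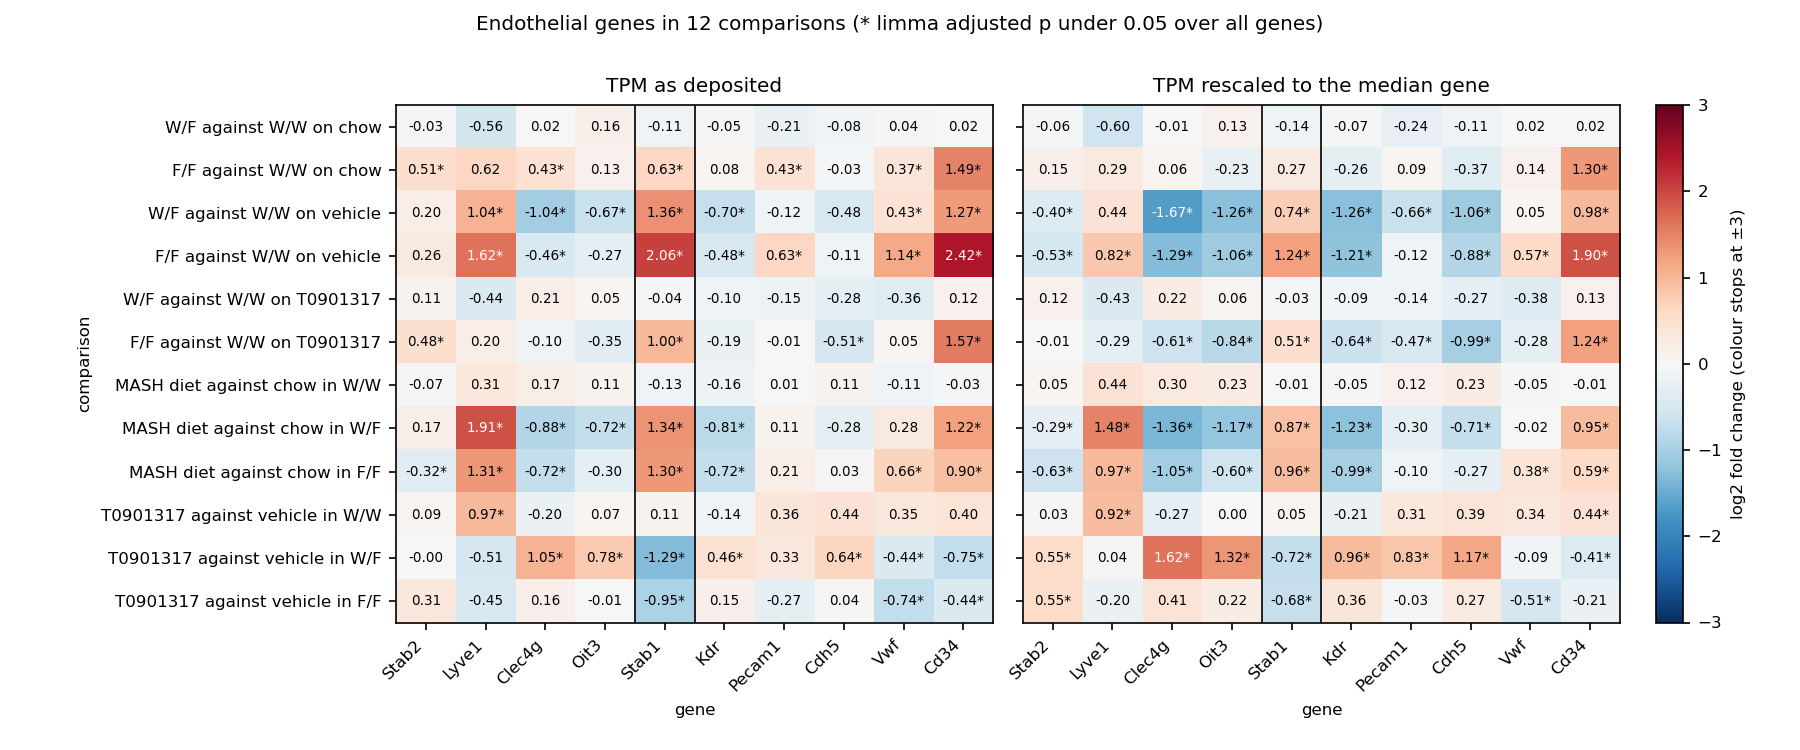
Log2 fold changes of the 10 genes (columns) in 12 comparisons (rows), on deposited TPM (left) and rescaled TPM (right), with an asterisk where the limma adjusted p was under 0.05. Clec4g and Kdr are lower and Stab1 and Cd34 higher on vehicle in both mutants in both panels, while Stab2 turns from 0.20 and 0.26 to -0.40 and -0.53.

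F/F was compared with W/F on each treatment to order the mutants. On chow 6 members were higher in F/F (Stab2, Lyve1, Clec4g, Stab1, Pecam1, Cd34), where 41.4% of all genes passed. On vehicle 5 were higher (Clec4g, Stab1, Pecam1, Vwf, Cd34), where 21.3% passed. With T0901317 5 were higher (Stab2, Lyve1, Stab1, Vwf, Cd34), where 62.6% passed. The shares in this paragraph count genes passing in either direction, so they are not shares of genes higher in F/F. The median member differed by 0.48 on chow, 0.58 on vehicle and 0.26 with T0901317. The median of all genes differed by 0.26, 0.18 and 0.43, so with T0901317 the median member lay below it. After rescaling 3 were higher on chow (Lyve1, Stab1, Cd34), where 31.2% of all genes passed, and 4 on vehicle (Stab1, Pecam1, Vwf, Cd34), where 10.6% did. With T0901317, rescaling left 2 higher (Stab1, Cd34) and gave 4 lower, Clec4g (-0.83), Oit3 (-0.90), Kdr (-0.56) and Cdh5 (-0.72), where 40.3% passed. Stab1 and Cd34 were higher in F/F than in W/F under all 3 treatments and both scalings. For Cd34 the difference was 1.47 ± 0.17 on chow, 1.15 ± 0.17 on vehicle and 1.45 ± 0.17 with T0901317. Clec4g in F/F on chow (0.42), and Stab2 (0.37), Lyve1 (0.64) and Vwf (0.41) with T0901317, lost their calls when single libraries were left out. Those libraries were F/F chow replicate 3 or W/F chow replicate 1 for Clec4g (0.34 each), F/F T0901317 replicate 2 (0.30) or W/F T0901317 replicate 1 (0.24) for Stab2, and F/F T0901317 replicate 1 (0.30) or W/F T0901317 replicate 3 (0.35) for Vwf. For Lyve1 they were F/F T0901317 replicate 1 or 2 or W/F T0901317 replicate 1, 3 or 4 (0.49 to 0.69). Calls were gained for Vwf on chow without F/F replicate 2 or W/F replicate 3 (0.42 each), and with T0901317 for Clec4g (-0.43) and Oit3 (-0.53) without F/F replicate 2, Oit3 without W/F replicate 2 (-0.53), and Pecam1 without F/F replicate 3 (0.35).

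A difference between genes of 1 library depends less on the library's scaling, through the pseudocount only, so each member was also set against the mean of 21 of the 24 other endothelial genes, those averaging at least 1 TPM, on the log2(TPM + 1) scale. That mean was 2.60 ± 0.07 in W/W livers, 2.47 ± 0.20 in W/F livers and 3.08 ± 0.16 in F/F on vehicle. Clec4g stood 2.5 ± 0.11 above it in W/W and 1.59 ± 0.20 and 1.57 ± 0.23 above it in W/F and F/F. Oit3 went from 1.13 ± 0.18 in W/W to 0.59 ± 0.18 and 0.38 ± 0.17, and Kdr from 0.51 ± 0.04 to -0.06 ± 0.11 and -0.45 ± 0.17. In each case the mutant ranges lay below the W/W range. Stab1 went from 0.70 ± 0.05 to 2.19 ± 0.29 and 2.28 ± 0.09, Lyve1 from 0.26 ± 0.21 to 1.42 ± 0.12 and 1.40 ± 0.32, and Cd34 from -2.21 ± 0.16 to -0.81 ± 0.20 and -0.26 ± 0.28, with the mutants above W/W throughout. Pecam1 stayed close to the reference, at 0.02 ± 0.08, 0.03 ± 0.19 and 0.17 ± 0.09, and Stab2 was at 0.85 ± 0.14, 1.18 ± 0.16 and 0.63 ± 0.09, so its order was W/F, W/W, F/F with no overlap of W/F with the others. With T0901317, W/F was at 2.47 ± 0.14 for Clec4g and at 0.73 ± 0.24 for Stab1, and F/F was at 1.86 ± 0.30 and 1.47 ± 0.11.

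**Figure D3:**
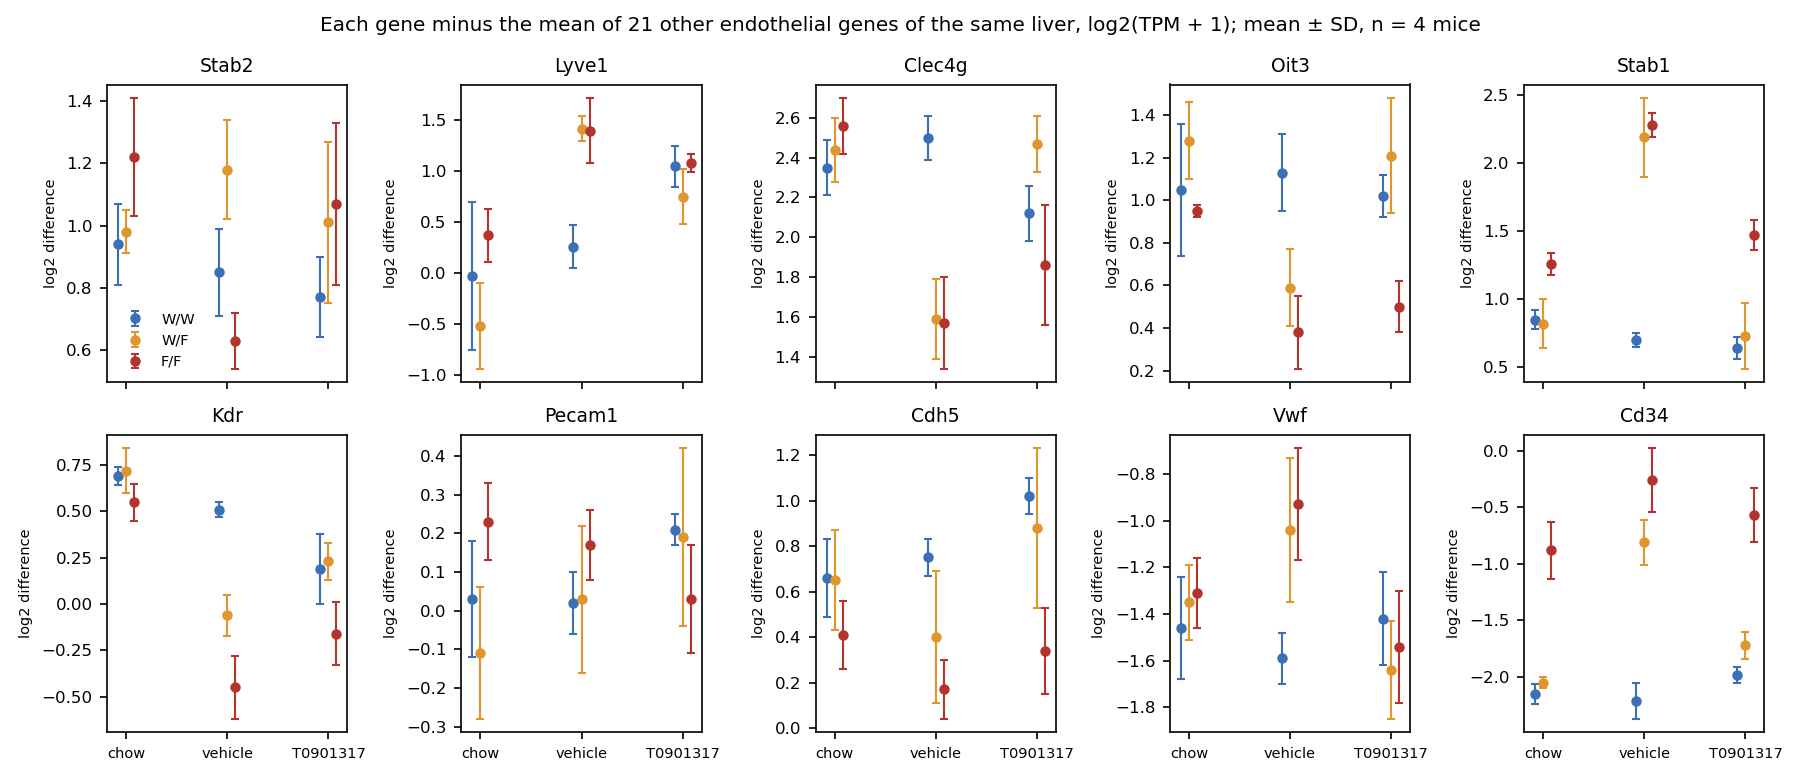
Each gene's log2(TPM + 1) minus the mean of 21 other endothelial genes in the same liver, by treatment and genotype, as mean and SD of 4 mice. On vehicle Clec4g stands at 2.5 in W/W and at 1.59 and 1.57 in W/F and F/F, and Stab1 at 0.70, 2.19 and 2.28, while Pecam1 stays between 0.02 and 0.17.

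The mean of the 4 sinusoidal genes minus that of the 5 general or capillarised genes summarised the contrast the grouping implies. On vehicle it was 1.69 ± 0.10 in W/W livers, 1.49 ± 0.05 in W/F livers and 1.26 ± 0.18 in F/F, with no overlap between W/W and either mutant. On chow it was 1.52 ± 0.24, 1.47 ± 0.14 and 1.47 ± 0.15, and with T0901317 1.63 ± 0.08, 1.77 ± 0.12 and 1.51 ± 0.11. With Kdr, Pecam1 and Cdh5 alone as the general genes, the differences from W/W on vehicle were 0.32 in W/F livers and 0.27 in F/F, in place of -0.20 and -0.43. Adding Stab1 to the sinusoidal genes gave 0.10 and -0.08. Each side of this contrast held genes of opposite direction, Lyve1 against Clec4g and Oit3 among the sinusoidal genes, and Cd34 and Vwf against Kdr among the general ones. Ratios within a library show the same without any group, with Clec4g to Stab2 at 3.38 ± 0.434, 1.38 ± 0.317 and 2.03 ± 0.430 and Kdr to Pecam1 at 1.48 ± 0.0438, 0.929 ± 0.0674 and 0.612 ± 0.0712 in W/W, W/F and F/F on vehicle, neither mutant overlapping W/W.

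Further sinusoidal genes also divided. Of 18 listed, 16 were tested, and on vehicle 7 were higher and 4 lower than W/W in W/F, and 8 higher and 4 lower in F/F, with medians of 0.00 and 0.32 (after rescaling 5 higher and 8 lower in each). For this and the following lists, the shares of all genes on vehicle were 61.6% higher and 6.83% lower in W/F and 69.3% and 7.13% in F/F, or 27.6% and 25.5%, and 31.0% and 28.1%, after rescaling. Lower in both mutants and on both scalings were Dnase1l3, a secreted DNase, Ehd3, an endocytic protein, Gata4, the factor that specifies sinusoidal endothelium, and Wnt2, a signal to hepatocytes near the central vein. Dnase1l3 was at 12.8 ± 1.29 TPM in W/W livers, 4.15 ± 1.22 TPM in W/F livers and 6.41 ± 1.45 TPM in F/F (-1.45 ± 0.17 and -0.91 ± 0.17), and at 12.4 ± 1.15 TPM in W/F with T0901317 (1.40 ± 0.17 against vehicle, adjusted p = 4.72e-08). Ehd3 went from 23.6 ± 2.42 to 14.7 ± 2.97 and 11.4 ± 2.46 TPM. Higher in both mutants and on both scalings were Fcgr2b, an inhibitory Fc receptor (13.2 ± 1.68, 27.5 ± 3.03 and 34.9 ± 5.64 TPM), Maf, Ctsl and Plxnc1, and macrophages express Fcgr2b, Maf and Ctsl as well. The cell source was not tested for the genes that were higher or for those that were lower. In W/W, Gata4 was the only gene of this list to pass with the diet on the deposited scale (0.80, rescaled 0.93).

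The 24 other general endothelial genes moved little in W/F on vehicle on the deposited scale, with 1 higher, 6 lower and 17 not passing, and a median of -0.14 against 0.52 for all genes. After rescaling 20 of the 24 were lower. In F/F 12 were higher and none lower (median 0.35), turning to 2 higher and 9 lower after rescaling. Lower in W/F on both scalings were Aqp1, Flt1, Gpihbp1, Ptprb, Sox7 and Tek, the angiopoietin receptor (3.93 ± 0.965 TPM in W/W livers, 2.36 ± 0.151 TPM in W/F). The exception upward was Ecscr, a surface regulator of endothelial migration, at 2.40 ± 0.811, 7.47 ± 1.53 and 14.5 ± 1.67 TPM (1.34 and 2.21 against W/W, passing on both scalings). With T0901317 in W/F, 6 rose and Ecscr fell, where 6.59% of all genes rose and 59.3% fell. After rescaling 20 rose, where 23.6% of all genes did.

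Genes of capillarisation and vascular remodelling, mostly basement membrane, went 1 way. Of 16 listed, 14 were tested, and all 14 were higher than W/W on vehicle in W/F and in F/F, with medians of 1.20 and 1.88 against 0.52 and 0.70 for all genes (after rescaling 9 and 12 higher, none lower). Nid1, which links laminin to collagen IV, went from 3.52 ± 0.654 TPM in W/W to 71.7 ± 12.3 TPM in W/F livers and 66.6 ± 12.7 TPM in F/F. Col4a1, a chain of basement membrane collagen, went from 6.72 ± 1.08 to 58.2 ± 9.46 and 92.2 ± 12.3 TPM, and the log2 fold change of Sparcl1, a matrix glycoprotein, was 2.72 and 4.28. Plvap, the diaphragm protein of fenestrated and capillarised endothelium, went from 40.5 ± 2.08 to 97.0 ± 19 and 80.4 ± 8.88 TPM (1.22 ± 0.20 and 0.97 ± 0.20, but 0.11 and not passing in F/F after rescaling). With T0901317, 12 of the 14 fell in W/F livers and 8 in F/F, where 59.3% and 31.2% of all genes fell. After rescaling 7 and 3 fell, where 27.1% and 7.98% of all genes did. Nid1 went to 5.63 ± 1.98 TPM in W/F and, without passing, to 42.1 ± 10.2 TPM in F/F (adjusted p = 0.0535). Stellate cells also make collagen IV, laminins, Nid1 and Sparcl1, and their markers moved alongside as given for Cd34. The part of stellate cells was not tested.

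Of the leukocyte adhesion genes, 6 of 9 were tested, 3 being higher in W/F (Icam1, Vcam1, Sele) and 5 in F/F on vehicle. After rescaling Jam2 passed as lower in W/F (-0.36, adjusted p = 0.0346), and Selp (-0.21) and Jam2 (0.08) lost their calls in F/F. Icam1 was 4.25 ± 1.47 TPM in W/W livers, 43.1 ± 0.486 TPM in W/F livers and 46.3 ± 1.25 TPM in F/F, and Vcam1 3.24 ± 0.863, 27.8 ± 1.6 and 26.3 ± 3.46 TPM, and both passed on both scalings. Both fell with T0901317 in W/F (-2.29 and -2.19), where single mice ranged from 4.54 to 26.2 TPM for Icam1 and from 2.86 to 18.5 TPM for Vcam1, and did not pass in F/F (adjusted p = 0.11 and 0.204). Other cells express both genes as well. Of 25 tested angiogenic signals and receptors, 15 were higher and 4 lower in W/F, and 19 higher and 3 lower in F/F on vehicle (10 and 9, and 11 and 6, after rescaling), shares higher that lie near those of all genes on the deposited scale. Vegfa, the ligand of KDR, was lower in both mutants on both scalings, at 121 ± 20.9 TPM in W/W livers, 80.7 ± 12.0 TPM in W/F livers and 93.0 ± 7.80 TPM in F/F, and in W/F it rose with T0901317 to 110 ± 15 TPM (0.44, rescaled 1.04). Vegfc and Vegfd, the ligands of FLT4, were higher, Vegfc at 2.92 ± 0.374, 8.05 ± 0.793 and 11.8 ± 2.15 TPM. Thbs1, a matrix inhibitor of angiogenesis, showed the largest rise of this list in both mutants, from 0.462 ± 0.242 TPM to 9.47 ± 1.72 and 18.4 ± 4.92 TPM (2.84 and 3.70).

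**Figure D4:**
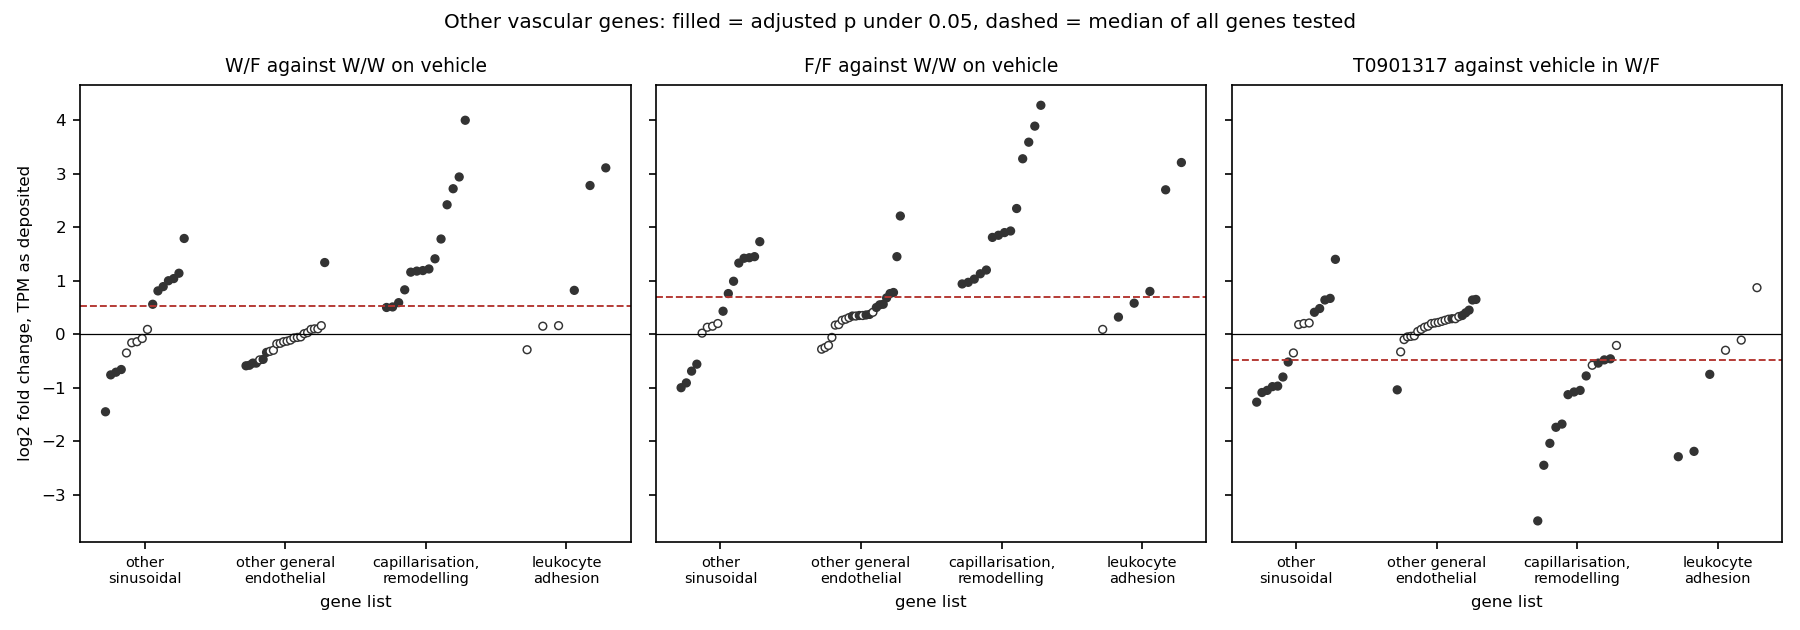
Log2 fold change on deposited TPM of each gene of 4 vascular lists (horizontal) in 3 comparisons, filled where the limma adjusted p was under 0.05, with the median of all genes dashed. All 14 capillarisation genes lie above 0 in both mutants on vehicle, and the sinusoidal genes spread to both sides.

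Across the 36 rescaled libraries, the genes most like 4 of the members were looked up among 9225 genes averaging at least 5 TPM, by Pearson r of log2(TPM + 1), as a description over libraries that share groups, diets and cohorts. Clec4g was most like Dnase1l3 (r = 0.97), Cd300lg (0.94), Timm17b (0.91), Adgrf5 (0.90) and Aqp1 (0.89). Pecam1 was most like Tie1 (0.82), Esam (0.80), Gpr182 (0.78), Flt4 (0.77) and Gpihbp1 (0.76), all endothelial genes. Cd34 was most like Mmp2 (0.98), Shc2 (0.97), Col6a3 (0.96), Loxl1 (0.96) and Cavin1 (0.96), among them matrix genes of fibroblasts. Stab2 was most like Gm2814 (0.83), Nlrp12 (0.82), Cyp2c54 (0.75), Agxt2 (0.74) and Gm11844 (0.74), of which Cyp2c54 and Agxt2 are hepatocyte enzymes and none is a vascular gene of the lists. Among the members themselves Clec4g followed Kdr (0.91) and Oit3 (0.90) and ran against Stab1 (-0.74), and Stab1 followed Cd34 (0.82).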

How the data were processed

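PolyA RNA of 36 mouse livers was sequenced. The authors deposited 1 table of TPM, per its column names and values (each column sums to 1000000). Per the submitters' processing notes, Trimmomatic 0.36, STAR 2.5.2b, featureCounts, Subread 1.5.2 and the build GRCm38 (mm10) were used, and roles and annotation are not given in the sources used here. TPM correct for length and total, not for a change in composition, and lack counts, so log2(TPM + 1) was fitted with limma 3.58.1 (R 4.3.3) with 1 mean for each of the 9 groups, all 36 libraries, variances following the mean, and genes of at least 1 TPM in at least 4 libraries. Two-sided p-values were Benjamini-Hochberg adjusted over the 16638 genes of each comparison, with a threshold of 0.05, for 16 comparisons and 3 of F/F with W/F. Rescaled TPM were divided by the median of ratios over 14786 genes. Depth was recovered from TPM steps and exon lengths of GENCODE M21. Of values under 20 reads, 93.7% to 95.7% fell within 0.1 of a whole read, where chance gives 20%, and read numbers cover counting error only. Replicates of a group correlated at 0.962 to 0.987 over 54 pairs. On simulated data of 16638 genes, the fit recovered 89 of 100 log2 changes of 1 and 95 of 100 of 2, with 8 false calls. The simulated libraries held no shift of the median gene, so this outcome cannot speak to the scaling.

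Groups came from the labels, and the labels give no sequencing batch. Each group has 4 mice, and p-values measure the spread between mice. All 10 members are named, with genes of fixed lists. The members and lists were chosen with earlier results of these data known. The 5 genes most like a member follow a rule of highest correlation. Alternatives tried were a pseudocount of 0.1, a filter of 5 TPM or none, rescaled TPM, only the groups compared, the replicate number as a block, other groupings of the members, and leaving out each library.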

Additional observations from a re-analysis of the deposited data

Results flagged for a closer look

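Within groups of 4, a mouse far from its group was found for Lyve1 in W/W on chow, where replicate 2 was at 11.9 TPM and the others between 3.19 and 4.07 TPM, and for Kdr in W/F on vehicle, where replicate 3 was at 3.43 TPM and the others between 4.57 and 4.78 TPM. The sinusoidal minus general difference had 1 such mouse in W/W with T0901317, at 1.75. Of 90 gene groups and 9 groups of that difference looked at, chance flags about 1 in 20.

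Differences in the T0901317 response, W/F minus W/W by the limma interaction, passed for Lyve1 (-1.48), Clec4g (1.25), Oit3 (0.71), Stab1 (-1.40), Kdr (0.60), Vwf (-0.79) and Cd34 (-1.16). Oit3 lost its call without W/F vehicle replicate 3 (0.61) or W/W vehicle replicate 1 (0.64), and Kdr without W/F vehicle replicate 3 (0.51) or W/W T0901317 replicate 1 (0.49). For F/F minus W/W they passed for Lyve1 (-1.42), Stab1 (-1.06), Pecam1 (-0.63), Vwf (-1.09) and Cd34 (-0.85). Pecam1 lost its call in 9 of its omissions: F/F T0901317 replicates 3 and 4, F/F vehicle replicates 2 and 4, W/W T0901317 replicates 2 and 3, and W/W vehicle replicates 1, 3 and 4 (-0.65 to -0.43). On rescaled TPM, Lyve1 (-0.88) and Vwf (-0.43) in W/F and Pecam1 (-0.34) in F/F did not pass.

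Differences in the diet response, W/F minus W/W, passed for Lyve1 (1.6), Clec4g (-1.05), Oit3 (-0.83), Stab1 (1.47), Kdr (-0.65) and Cd34 (1.25), and F/F minus W/W for Lyve1 (1.00), Clec4g (-0.89), Stab1 (1.43), Kdr (-0.57), Vwf (0.77) and Cd34 (0.93). In F/F, Lyve1 lost its call without F/F chow replicates 1 or 2, F/F vehicle replicates 1 or 4, W/W chow replicate 2 or W/W vehicle replicates 2, 3 or 4 (0.62 to 1.00, the lowest without W/W chow replicate 2). Kdr in F/F lost it without F/F chow replicates 1 or 3, F/F vehicle replicates 1 or 3, W/W chow replicate 3 or W/W vehicle replicates 2 or 4 (-0.57 to -0.43). On rescaled TPM, Lyve1 (0.53) and Vwf (0.43) in F/F did not pass.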

How the results depend on the processing

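Counts of members passing kept within 1.5 times under both other filters, the replicate block and the fit restricted to the compared groups in all 16 comparisons. They moved for T0901317 in W/W (1, but 2 with a pseudocount of 0.1 or rescaled TPM, and 0 to 1 when single libraries were left out), for chow F/F mice against W/W (6, but 1 rescaled, and 3 to 7 with single libraries left out) and for T0901317-treated F/F mice against W/W (4, but 7 rescaled). Rescaling reversed Stab2 for T0901317 in W/F (0.55), diet in W/F (-0.29), vehicle W/F (-0.40) and vehicle F/F (-0.53) against W/W, F/F against W/W (-0.01) and W/F (-0.13) on T0901317, and the T0901317 response of W/F (0.52), and Pecam1 for vehicle F/F mice against W/W (-0.12) and the T0901317 response of W/F (0.52). Signs also differed with no call in either fit for 20 of 190 gene and comparison pairs when rescaled and 59 over single omissions.

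The sinusoidal minus general difference moved with the genes chosen. For T0901317 in W/W (-0.05) it was -0.22 with a pseudocount of 0.1. In W/F (0.28) it was 0.41 with that pseudocount, 0.39 rescaled, -0.05 with Stab1 added and -0.15 with Kdr, Pecam1 and Cdh5 alone, and in F/F (0.25) 0.06 and 0.03 by the last 2. For diet in W/F (0.02) the pseudocount gave -0.15, Stab1 0.26 and the 3 genes 0.45, and in F/F (-0.22) the last 2 gave 0.04 and 0.15. Against W/W, W/F on vehicle (-0.20) was -0.46 with the pseudocount, -0.33 rescaled, 0.10 and 0.32. F/F was, with the pseudocount and the 3 genes, -0.31 and 0.26 on chow (main -0.05), -0.81 and 0.27 on vehicle (-0.43), and -0.26 and 0.29 on T0901317 (-0.13), with Stab1 giving -0.08 on vehicle and 0.06 on T0901317. The difference depends by construction on the members that enter it. Vwf and Cd34, left out with the 3 genes, and Stab1 were each higher than W/W in both mutants on vehicle on the deposited scale.

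Replicate numbers do not pair the mice: deviations of same-numbered mice correlated at -0.17 to 0.30 (median 0.01). With the number as a block, 185 of 190 single results kept their call, 4 gained one and Vwf in F/F against W/W on chow lost it (0.37, adjusted p = 0.051). With this replicate block 8 members passed in vehicle F/F mice against W/W, in place of 7. At 10 to 37 reads, Cd34 in W/W on chow and vehicle is the member most limited by depth.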
